A study of Homo sapiens with 28 samples.

Results

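Chromatin accessibility far from any annotated transcription start was described in myeloma cell lines, which are cultures grown from the malignant plasma cells of patients. The regions were those whose distance to the nearest start was 200 kb or more in the annotation deposited with the counts, and 1716 of 154985 regions (1.11%) met this limit. They are called start-distant regions here. The working name of gene desert held only in part, since 263 of them (15.3%) lay inside a long annotated gene, 7 overlapped an exon and 1453 lay between genes. ATAC-seq, in which the transposase Tn5 inserts sequencing adapters into open chromatin, was available for 22 lines without treatment and for 6 of these (Karpas620, KMS27, L363, MM1S, OPM2 and RPMI8226) on day 3 of 10 µM lenalidomide. The libraries came from viable sorted cells of lines kept in the same medium, each line and condition was assayed once, and the labels name no vehicle for the untreated libraries. No replicate cultures exist, so the spread given below is the spread between lines.

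Gene deserts are long stretches of the genome that hold few or no protein-coding genes. They can contain enhancers, stretches of DNA bound by transcription factors that raise the expression of a gene on the same chromosome, sometimes over great distances, and such elements are usually open in fewer cell types than promoters are. Plasma cells depend on the transcription factor IRF4, a member of the interferon regulatory factor (IRF) family, and lenalidomide binds the ubiquitin ligase subunit cereblon and causes the degradation of the lymphoid transcription factors IKZF1 and IKZF3. Accessibility does not show that a region is an enhancer, and genes beside a region are given as landmarks and not as its targets.

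The central 300 bases of 4 start-distant regions are shown because the results return to them: 2 of the 10 with the highest median over untreated lines, and, of those that moved alike in all 6 pairs after lenalidomide, 1 that was raised and 1 that was lowered. They were taken from windows in which at least 97% of the 24-base words occur once in the genome and none occurs 10 times or more. Letters are from the GRCh37 plus strand. Capitals mark matches on either strand to the AP-1 motif TGANTCA, the IRF motif GAAANNGAA, the RUNX motif TGTGGT and the E-box CAGGTG. The AP-1 motif reads the same on both strands, so its match counts on both. The window between MPDZ and NFIB holds no match to these or the other motifs searched, which says nothing about factors bound there.
SLC10A2 to DAOA, chr13:105791962-105792261: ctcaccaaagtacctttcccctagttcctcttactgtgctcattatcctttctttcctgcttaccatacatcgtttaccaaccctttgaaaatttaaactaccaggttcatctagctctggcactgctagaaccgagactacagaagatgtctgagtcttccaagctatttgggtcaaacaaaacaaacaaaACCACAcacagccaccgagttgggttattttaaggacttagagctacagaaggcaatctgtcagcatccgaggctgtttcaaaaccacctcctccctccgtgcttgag
TPBG to UBE3D, chr6:83277980-83278279: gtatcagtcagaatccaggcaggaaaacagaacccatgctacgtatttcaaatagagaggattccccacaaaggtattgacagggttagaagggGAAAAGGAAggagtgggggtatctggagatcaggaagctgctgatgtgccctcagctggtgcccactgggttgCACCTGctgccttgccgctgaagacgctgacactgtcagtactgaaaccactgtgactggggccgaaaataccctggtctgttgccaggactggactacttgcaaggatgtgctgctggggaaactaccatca
MPDZ to NFIB, chr9:13688479-13688778: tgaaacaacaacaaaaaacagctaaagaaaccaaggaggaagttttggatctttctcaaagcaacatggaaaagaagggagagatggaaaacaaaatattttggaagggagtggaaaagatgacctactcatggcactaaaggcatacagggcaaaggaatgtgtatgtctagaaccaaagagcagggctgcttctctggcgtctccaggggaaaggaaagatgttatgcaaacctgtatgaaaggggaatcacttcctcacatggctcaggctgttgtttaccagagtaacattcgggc
SYT4 to SETBP1, chr18:41152115-41152414: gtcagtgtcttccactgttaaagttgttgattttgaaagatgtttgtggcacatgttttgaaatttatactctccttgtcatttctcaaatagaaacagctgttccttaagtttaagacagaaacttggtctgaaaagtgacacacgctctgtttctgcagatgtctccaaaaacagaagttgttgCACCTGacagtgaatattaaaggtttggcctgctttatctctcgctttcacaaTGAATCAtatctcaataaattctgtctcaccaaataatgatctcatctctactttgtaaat

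The first of these windows holds 1 RUNX match, on the minus strand. The second, between TPBG, an oncofetal glycoprotein gene, and UBE3D, holds an IRF match on the plus strand and an E-box on the minus strand. The window between SYT4 and SETBP1 holds an E-box and an AP-1 match. Reads from repeated words can be placed at more than 1 position, and how the authors treated such reads is not given in the sources used here.

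Facts that touch every result come first. Untreated libraries held 1599857 to 5564534 counts and lenalidomide libraries 2168680 to 4248017. KMS20 and H1112 had the deepest untreated libraries. Most plasma cell markers were open at their own starts in most lines, with a called peak at 7 of 10 marker starts in 11 or more lines. PRDM1 and TNFRSF17 were called in 22 lines and SDC1 and CD38 in 21, while FCRL5 was called in 8, JCHAIN in 7 and SLAMF7 in 5. A call in 11 or more lines was found for 1 of 5 B cell, 1 of 6 T and NK cell, 0 of 6 myeloid, 0 of 4 erythroid and 1 of 4 stromal markers. The exceptions among the other cell types were CR2 in 16 lines, CD8A in 21 and COL1A1 in 21. PCM6 and PE1 had 4 of the 10 plasma cell starts open, the fewest, and PCM6 had no called peak at the starts of SDC1, IRF4 or XBP1. KMS34 and PE1, which carry different names, resembled each other as libraries of 1 line do, as described below. The numbers called, the likeness of libraries, the correlation of neighbouring regions and the IRF shares are given without these libraries too, and the values of single regions and intervals are not. In bulk cells, fewer open cells and less accessibility per cell cannot be told apart, and copy number of the tumour genomes was not removed from the values.

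Start-distant regions were found on 21 of 22 autosomes. Chromosome 4 held the most, 210, and chromosome 13 the highest share, 3.28% of its regions, while the gene-rich chromosome 19 held 0. Their median width was 372 bases, the median distance to a start was 245948 bases and the largest was 679616 bases. At the limit itself, the 2 nearest regions inside it lay 200006 and 200115 bases from a start, with median CPM (counts per 1000000 counts in regions) over untreated lines of 2.94 and 0.564. The 2 nearest outside it lay at 199987 and 199993 bases, with 0.353 and 1.18 CPM.

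The distance depends on which starts are annotated. Measured to the starts of GENCODE v44 lifted to GRCh37, 920 of the 1716 regions (53.6%) were still at least 200 kb away. The nearest deposited starts belonged to 474 genes, and 611 regions (35.6%) had a pseudogene as the nearest, 433 a long noncoding RNA, 330 a small or other RNA and 318 (18.5%) a protein-coding gene. None of 40 plasma cell and myeloma genes and none of 43 annotated developmental transcription factor genes was the nearest start of such a region. At all distances the plasma cell and myeloma genes accounted for 726 regions (0.468%) and the developmental genes for 368 (0.237%). With shares this small, their absence is not shown to be particular to start-distant regions. Of 46 annotated genes for neuronal adhesion and synapses 11 held such a region or were its nearest start, for 46 regions in all (2.68%), beside 0.795% of regions at all distances. A region 200 kb or more from any start can lie inside a gene only if that gene is long. The lengths of the listed genes were not taken into account, so the higher share is not shown to concern their function. After lenalidomide 6 of the 46 could be tested and 1 passed the test described below, beside 5.40% of all regions tested. CNTNAP2, a neurexin family protein of neurons, accounted for 16 of them, all inside the gene, and PCDH7, a protocadherin, for 9, all outside it.

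Long genes held the 263 start-distant regions that did not lie between annotated genes. PARK2, which encodes the ubiquitin ligase parkin, contained 22, the neuronal membrane protein gene NKAIN2 contained 18 and the glycosyltransferase gene GALNTL6 contained 17. These regions differed in how widely they were open. In PARK2, 15 of 22 were called in 1 line and none in more than 4, whereas ZNF804B, a zinc finger gene with 10 regions, contained 1 that was called in 17 lines with a median of 13.5 CPM. Over all 263 regions inside genes 47.1% were called in 1 line and 3.80% in 11 or more, beside 46.04% and 5.44% of the 1453 between genes.

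Most start-distant regions were open in few lines. A called peak was present in exactly 1 untreated line for 793 regions (46.2%), in 11 or more lines for 89 (5.19%), and in no untreated line for 158, which were called after lenalidomide only. No region was called in all 22 lines, and the widest were 3 regions called in 21. The share called in 1 line was 21.7% within 1 kb of a start, 39.8% at 1 to 10 kb, 40.4% at 10 to 50 kb and 43.7% at 50 to 200 kb, so that start-distant regions stood at the end of a series whose largest step was the one at promoters. The share called in all 22 lines went from 18.4% within 1 kb to 0.200% at 50 to 200 kb. With a CPM of at least 2 in place of a called peak, 186 start-distant regions were open in 1 line and 13 in all 22.

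**Figure D1:**
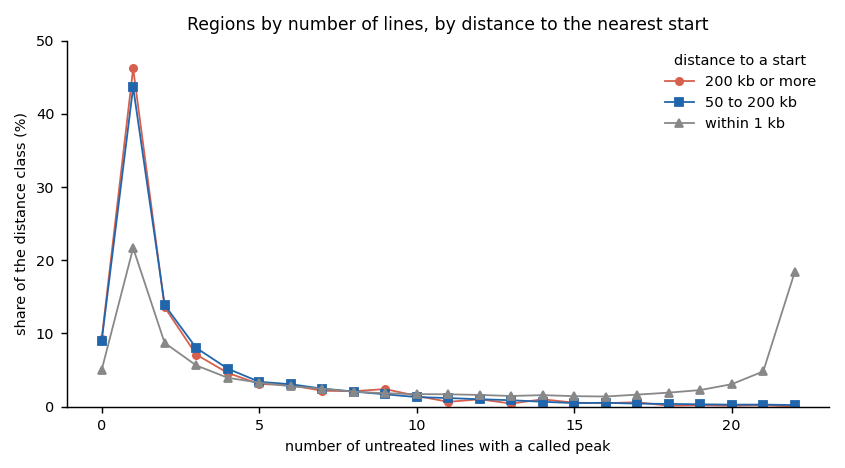
Share of regions in percent (vertical axis) by the number of untreated lines with a called peak (horizontal axis, 0 to 22), for regions within 1 kb, at 50 to 200 kb and at 200 kb or more from a start. The 2 distal curves lie close together and start from 43.7% and 46.2% at 1 line, while the promoter curve ends at 18.4% in all 22 lines.

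Among the start-distant regions themselves, distance made little difference up to 400 kb. The share called in 1 line was 46.7% of the 911 regions at 200 to 250 kb, 43.8% at 250 to 300 kb, 42.8% at 300 to 400 kb and 54.9% of the 164 regions beyond. The share called in 11 or more lines was 4.94%, 6.18%, 6.32% and 2.44% in the same order. The region farthest from a deposited start, chr13:104786859-104787061, ranged from 0 to 11.2 CPM with a median of 0.497. It was highest in L363, was called there alone and lay only 8.58 kb from a GENCODE v44 start. In its window 70.8% of the words were repeated at least 10 times.

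The number of start-distant regions called per untreated line ran from 93 in RPMI8226 to 541 in KMS20, with a median of 199. The regions called in a single untreated line came mostly from 4 lines: KMS20 had 142, H1112 139, PCM6 92 and XG-6 76, together 449 of 793 (56.6%). The same 4 lines held 52.8% of the regions called in 1 line at all distances, so most of this concentration was shared with the whole set. L363 had the fewest, 4. Depth moved with part of this order, since H1112 and KMS20 ranked first and second of 22 in depth, while PCM6 ranked 14 and XG-6 ranked 21, and its part in the counts was not tested. Without the KMS20 and H1112 libraries 605 regions were called in 1 line and 1 in every remaining line, without PCM6 750 and without PE1 788 were called in 1. The median number called per line was then 182.5, 185 and 213.

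Start-distant regions took 0.281% (U266) to 0.865% (XG-6) of a library's counts, with a median of 0.566%. After lenalidomide the share was 0.292% to 0.698% in the 6 lines. It was higher than in the untreated library of the same line in 3 pairs and lower in 3, with a mean within-pair difference of -0.0045 ± 0.0653 percentage points (SD, n = 6), so the direction was not shared. The number called after lenalidomide was higher in 5 pairs and lower in Karpas620, 139 against 143, and the number called over all distances moved the same way in each of the 6 lines. As a share of all called regions, start-distant ones were higher in 4 pairs and lower in OPM2 (0.995% and 0.959%) and RPMI8226 (0.348% and 0.345%). The treated RPMI8226 library, with 143 regions called against 93, was 2.01 times as deep as its untreated one.

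**Figure D2:**
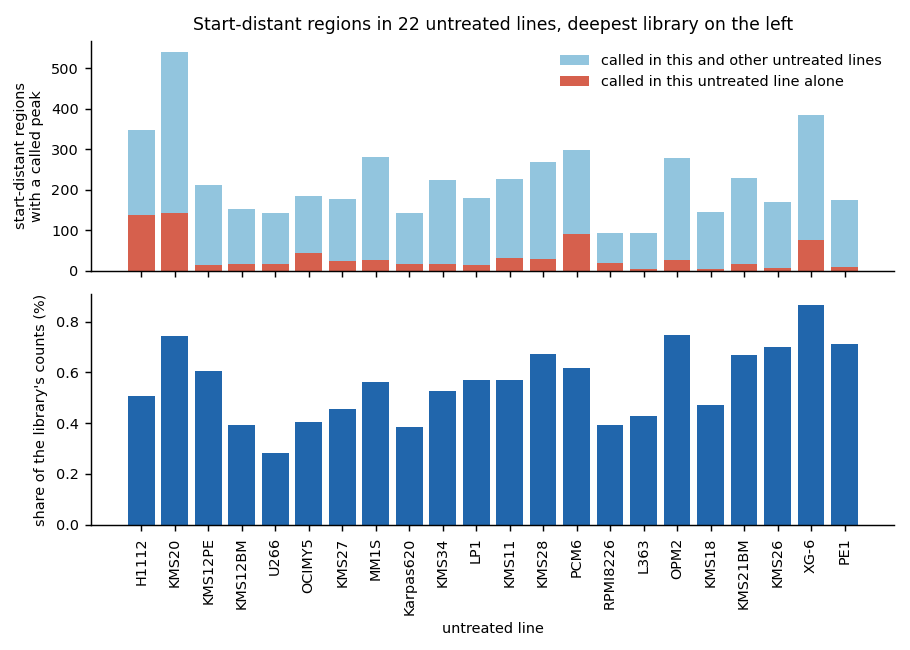
Untreated lines from the deepest library (left) to the shallowest (right). Bars in the upper panel count start-distant regions with a called peak, with those called in that untreated line alone in red, and bars in the lower panel give the share of the library's counts in start-distant regions in percent; KMS20 with 541 and XG-6 with 384 called regions stand out, at opposite ends of depth.

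The 10 regions with the highest median were each called in 14 or more lines and low in a few. The highest, chr13:105791429-105792794, lies between SLC10A2, the bile acid transporter of the ileum, and DAOA, at 325 kb from the start of the pseudogene RPL7P45. It had 2.16 CPM at the lowest, 46.6 at the median and 118 at the highest over 22 lines, and it was called in 21. H1112 alone lacked it, the next lowest being KMS20 with 18.5 CPM, and U266 was the highest. It is the first of the printed windows, and 97.8% of its words occur once in the genome.

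Another, chr6:91762094-91763103, lies between the kinase gene MAP3K7 and the ephrin receptor gene EPHA7. Its values formed separate ranges: the 14 lines with a called peak had 17.2 to 87.5 CPM and the other 8 had 1.37 to 7.96. KMS34 and PE1 were both among the 8, at 1.73 and 1.88 CPM. In its central 300 bases 83.0% of the 24-base words occur at least 10 times in the genome.

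The region chr8:118893575-118894363 is in an intron of EXT1, which encodes a heparan sulfate polymerase, and was called in 21 lines with 4.25, 29.6 and 99.9 CPM. RPMI8226 was the line without a call, and the nearest GENCODE v44 start lay 74.4 kb away. The region chr4:142898377-142899316, between the cytokine gene IL15 and the phosphatase gene INPP4B, had the greatest spread of the 10, with an SD of 1.95 on the log2(CPM + 1) scale. Its values ran from 0.763 CPM in KMS12PE over a median of 24.3 to 112 CPM in PCM6. In chr4:161046602-161047368, between RAPGEF2 and FSTL5, KMS21BM and KMS26 had 152 and 145 CPM, far above the next line, KMS20, at 51.6. Another 4 were called in 17 to 21 lines and had medians of 23.8 to 29.5 CPM. They include chr6:83277737-83278522, the second of the printed windows, with 1.73 CPM in Karpas620, the line without a call, a median of 23.8 and 61.7 CPM in KMS18. The 10 together held 5.78% of the start-distant counts at the median, and all 10 lie more than 5 Mb from the longest gap without regions of their chromosome.

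**Figure D3:**
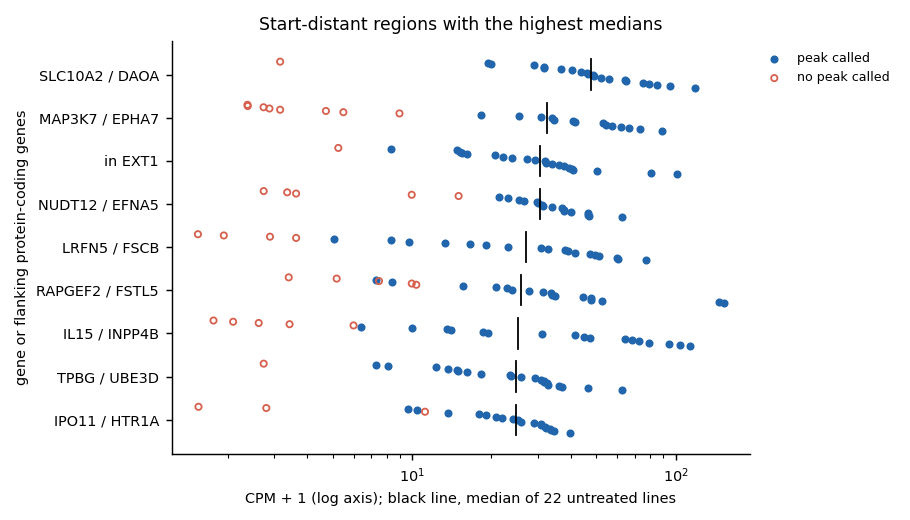
CPM + 1 on a log axis in each of 22 untreated lines (points) for 9 of the 10 start-distant regions with the highest median (black lines), named by the gene they lie in or by the protein-coding genes on either side. Open red circles are lines without a called peak: 1 line for the regions at SLC10A2, EXT1 and TPBG and 8 lines for the region between MAP3K7 and EPHA7.

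Regions called in a single line could be as high as these. In U266 the region chr1:195691350-195692276 reached 60.4 CPM, against 0 to 5.26 CPM in the other 21 lines. H1112 had 55.5 CPM at chr13:77208710-77209684, beside KCTD12, an auxiliary subunit of GABA-B receptors, against at most 5.61 elsewhere. It also had 48.2 CPM at chr11:114783531-114784128, beside the cell adhesion gene CADM1, against at most 3.72. PCM6 had 53.9 CPM at chr3:144148511-144148966 against at most 2.06, and KMS18 had 40.4 CPM at chr8:84607718-84608037 against at most 5.73. For these 5 regions the line's summed CPM in all other regions within 2 Mb was 0.775 to 1.63 times the median line. The part of copy number in the 5 values was not tested. In the U266 and KMS18 windows 58.8% and 65.0% of the words were repeated at least 10 times, and in the other 3 it was 0%. The regions on chromosomes 1, 13 and 3 lay only 40.3, 24.9 and 15.7 kb from a GENCODE v44 start. Those on chromosomes 11 and 8 lay 215 and 217 kb from one.

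Start-distant regions occurred in runs. With nearer regions and steps of 400 kb or more as breaks, they formed 292 intervals with a median of 4 regions, and 54 intervals held 1. The longest list was in chr3:144128181-145007767, between DIPK2A and PLOD2, a lysyl hydroxylase, with 43 regions over 880 kb. Every line had at least 1 of them called and XG-6 had 15. The summed CPM ran from 24.1 in U266 over a median of 133 to 291 in PE1 and 281 in XG-6.

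The interval chr1:104930509-105680856, between the amylase gene AMY1C and PRMT6, held 36 regions and ranged from 16.5 in OCIMY5 over 82.2 to 223 CPM in KMS12PE, where the surroundings were also 2.70 times the median line. The interval chr13:104299582-105238691 held 35 regions, none of them called in 7 lines, with 20.4 CPM in KMS20, 48.5 at the median and 189 in L363. Its L363 surroundings were at 0.828 times the median line. The interval chr2:122751822-123621528 held 31 regions with a range of 35.1 to 185 CPM and chr3:83115041-83774341 held 26 with 12.8 to 293 CPM. In the last of these KMS12PE was highest, at 4.86 times the median, with surroundings at 1.37 times.

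Within 15 kb of each other, 1167 regions (68.0%) formed 407 dense groups of 2 or more. No such counts of runs or groups are given for regions nearer a start, so grouping is not shown to be particular to start-distant regions. The largest was chr18:41134828-41201344, between the synaptotagmin gene SYT4 and SETBP1, with 10 regions over 66.5 kb. Its summed CPM was 11.2 in U266, 43.6 at the median and 180 in H1112, which had 9 of the 10 called and surroundings at 2.50 times the median line. The group chr4:125844528-125880372, between ANKRD50 and the atypical cadherin gene FAT4, held 9 regions and was high in OCIMY5 alone, at 187 CPM against 54.2 in the next line. The 4 groups of 8 regions differed from each other in the line that was highest: PCM6 at chr1:105275762-105330684, KMS21BM at chr2:176412836-176460300, KMS12PE at chr3:83266138-83305640 and OPM2 at chr4:24165627-24206785, between PPARGC1A and DHX15.

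Neighbouring regions varied together. For the 270 start-distant regions with a mean of at least 5 CPM, the Spearman correlation over the 22 untreated lines had a median of 0.574 for 43 pairs in 1 dense group and of 0.455 for 206 pairs in 1 interval but in different groups. It was 0.143 for pairs on 1 chromosome in different intervals and 0.106 for pairs on different chromosomes. Without the libraries named above it was 0.522 to 0.623 within a group, 0.471 to 0.484 within an interval and 0.104 to 0.125 between chromosomes. These are descriptions over lines that share depth and copy number within each library, and the part of copy number was not tested. The same correlations are not given for regions nearer a start, so they are not shown to be particular to start-distant regions.

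The spread between lines was set beside regions of the same mean level. Among regions with a mean of 5 to 20 CPM, the median SD of log2(CPM + 1) was 1.37 for 241 start-distant regions, 1.25 for regions at 50 to 200 kb and 1.09 for all regions. At 20 CPM or more it was 1.73 for 29 start-distant regions, 1.38 and 0.579. At 1 to 2 CPM the values were 0.790, 0.785 and 0.785, where few counts per region limit what can be seen.

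Libraries resembled each other less over start-distant regions than over promoters. The median Spearman correlation between 2 untreated lines was 0.340 over the 1716 regions, 0.387 over regions at 50 to 200 kb and 0.771 within 1 kb of a start. These correlations fall with low counts, and the median count of a start-distant region per library was 1 to 8. All 6 lenalidomide libraries were nearest to the untreated library of their own line, at 0.587 to 0.736, with the next library at 0.403 to 0.530. H1112 and PCM6 were the least like the others, with medians of 0.215 and 0.231. The median between lines was 0.352 without PCM6, 0.345 without PE1 and 0.348 without KMS20 and H1112.

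KMS34 and PE1 correlated at 0.747 over start-distant regions, above all 6 pairs of libraries of 1 line and above the next pair of lines, KMS28 and OPM2, at 0.572. Within 1 kb of a start they correlated at 0.934, inside the range of 0.927 to 0.960 of the pairs from 1 line. KMS12BM and KMS12PE, which were established from the same patient, correlated at 0.495, rank 23 of 231 pairs. Whether KMS34 and PE1 share an origin was not tested here.

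**Figure D4:**
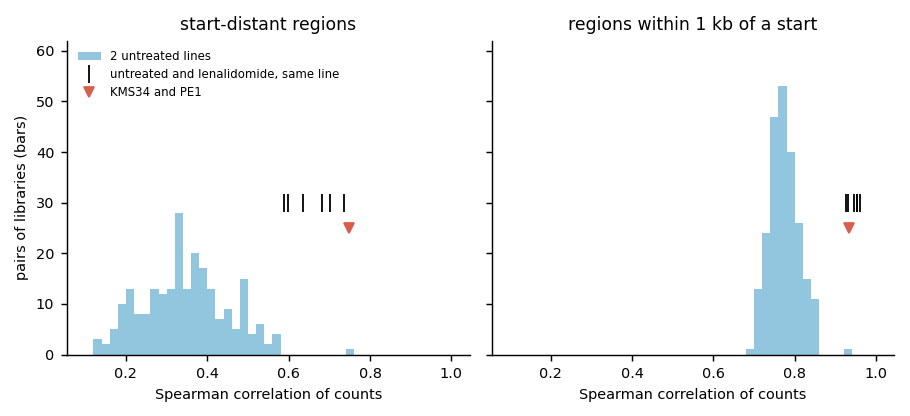
Spearman correlation of counts (horizontal axis) between pairs of libraries over start-distant regions (left) and regions within 1 kb of a start (right). Bars count pairs of untreated lines, ticks are the untreated and lenalidomide libraries of 1 line and the triangle is KMS34 with PE1, which lies among or above the ticks in both panels (0.747 and 0.934), apart from the other pairs of lines; ticks and triangle are placed at an arbitrary height.

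The sequences of start-distant regions had lower GC content than those nearer a start, with a median of 43% in the central 300 bases against 44% at 50 to 200 kb and 60% within 1 kb. Repeated sequence was more frequent: at least 50% of the 24-base words occurred 10 times or more in the genome in 11.5% of start-distant regions, 9.26% at 50 to 200 kb and 2.37% within 1 kb. A match to the GC box GGGCGG was present in 5.36% of start-distant windows, 5.57% of those at 50 to 200 kb and 14.7% of all windows. For the ETS motif CCGGAAG the shares were 1.40%, 1.705% and 3.39% in the same order. The CTCF motif, for the factor that bounds chromatin loops, was found in 1.17%, 2.09% and 2.85%. The AP-1 motif was in 17.1%, 16.8% and 15.2%, the octamer ATGCAAAT in 3.61%, 4.37% and 3.71% and the E-box in 29.1%, 30.6% and 32.1%. The RUNX motif (33.2%, 34.0% and 30.2%) and the homeobox motif TAATTA (7.34%, 7.70% and 6.01%) were above all windows but below the windows at 50 to 200 kb. Most of these shares thus lay near those of the other distal regions.

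IRF matches were more frequent in the start-distant regions that were open in many lines. They were in 20.9% of all start-distant windows, in 19.6% of those at 50 to 200 kb and in 15.8% of all windows. By the number of untreated lines with a called peak the share was 19.7% of 951 regions in 0 or 1 line, 17.2% of 487 in 2 to 5, 31.2% of 189 in 6 to 10 and 32.6% of 89 in 11 or more. At 50 to 200 kb from a start the same 4 shares were 17.9%, 19.8%, 24.5% and 24.3%. In start-distant windows without a word repeated 10 times, 48 of the 158 regions called in 6 or more lines (30.4%) held a match, as did 18 of the 45 (40.0%) in which at least 50% of the words were repeated. At 50 to 200 kb the same 2 shares were 21.5% and 36.6%, so repeated words moved with the share, and their part in it was not tested. Without the KMS20 and H1112, the PCM6 or the PE1 libraries the share in 6 to 10 lines was 30.7% to 34.1% and in 11 or more 30.1% to 32.6%. E-box matches went from 25.4% of windows in 0 or 1 line to 42.7% in 11 or more, and AP-1 matches from 17.8% to 11.2%, the last being 10 of 89 windows. At 50 to 200 kb the E-box shares were 27.5% and 38.2% and the AP-1 shares 17.6% and 16.4%. Over all regions the E-box shares were 31.1% and 30.4% and the AP-1 shares 16.7% and 9.74%. A match is a run of letters and no evidence of binding, and the regions open in many lines are also wider.

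For lenalidomide, edgeR's quasi-likelihood test with the cell line as a block was run on all regions that passed a filter on low counts, with Benjamini-Hochberg adjustment over all 37732 tested. Of the 1716 start-distant regions 197 (11.5%) could be tested, and 12 of these (6.09%) passed an adjusted p of 0.05, beside 5.40% of all regions tested. The 7 raised were 3.55%, beside 4.17% of all tested regions, and the 5 lowered were 2.54%, beside 1.22%. Beside all regions tested the total therefore stood close to the background. More were of the lowered and fewer of the raised kind, on counts of 5 and 7. At 50 to 200 kb from a start 195 of 2634 tested regions (7.40%) passed, 140 raised and 55 lowered. Within 1 kb it was 464 of 16150 (2.87%), so the start-distant share lay below the next distance class and above promoters. The median log2 fold change was -0.02 over the 197 and -0.01 over all regions tested. The other 1519 start-distant regions did not pass the filter and were not tested.

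The largest increase was at chr9:13688439-13688817, between the scaffold protein gene MPDZ and NFIB, a transcription factor gene, and nearest to LINC00583. The untreated values were 0.337 CPM in KMS27, 0.510 in L363, 1.42 in RPMI8226, 1.73 in Karpas620, 2.09 in OPM2 and 2.40 in MM1S. After lenalidomide they were 4.79, 11.5, 5.65, 3.91, 6.78 and 6.53 in the same lines. All 6 pairs went up and the groups did not overlap, with L363 changing most. The log2 fold change was 2.11 ± 0.34 (SE, 6 pairs, edgeR's quasi-likelihood test with Benjamini-Hochberg adjusted p = 0.000111). A peak was called in 0 of 6 untreated and 5 of 6 treated libraries, on 1 to 7 untreated counts, and every word of its window is found once in the genome. It passed the filter on low counts, 3.77 CPM in at least 6 of the 12 libraries, through the treated libraries alone, the only one of the 197 to do so, and so had to differ to be tested. The p is therefore a description and no support for the difference. Without the KMS27 or MM1S pair, or with at least 10 counts in each library, it was not tested.

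The region chr8:78830841-78831663, between the peroxisome gene PEX2 and PKIA, an inhibitor of protein kinase A, also went up in 6 of 6 pairs. It went from 1.42 to 6.26 CPM untreated (median 2.65) to 2.35 to 19.9 (median 5.27), and the groups overlapped. Its log2 fold change was 1.32 ± 0.28 (SE, 6 pairs, edgeR with Benjamini-Hochberg adjusted p = 0.00282). OPM2 and MM1S had the highest values in both conditions.

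Elsewhere among the raised regions the direction was not shared by every pair. At chr3:144134079-144134773, in the interval of 43 regions described above, the log2 fold change was 1.24 and 4 of 6 pairs went up, with L363, MM1S and OPM2 at 19.96 to 23.1 CPM after treatment and Karpas620 and RPMI8226 below 1. In the intron of CNTNAP2, chr7:146110207-146110720, it was 1.14 with 5 of 6 pairs up, and MM1S went from 8.24 to 27.9 CPM. At chr2:126155008-126155867, between CNTNAP5 and the glycophorin gene GYPC, it was 0.61, with L363 going from 29.1 to 61.8 CPM while Karpas620 and RPMI8226, the lowest of the 6 before treatment at 2.43 and 2.36 CPM, went down. The EXT1 intron, among the 10 highest, had a log2 fold change of 0.54 with 5 of 6 pairs up. RPMI8226 was against the direction there, with 4.25 and 2.12 CPM on 9 counts in each library. Of the 10 highest, 8 had adjusted p of 0.123 or more by edgeR.

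The largest decrease was at chr5:105521212-105521852, between NUDT12 and EFNA5, an ephrin gene. KMS27 went from 47.6 to 29.4 CPM, L363 from 20.9 to 10.6, MM1S from 11.7 to 5.08, RPMI8226 from 5.19 to 1.18, OPM2 from 4.17 to 0.904 and Karpas620 from 1.04 to 0.391. All 6 pairs went down while the groups overlapped, since lines differed more than conditions did. In its central 300 bases 22.02% of the words are repeated at least 10 times. The log2 fold change was -1.07 ± 0.24 (SE, 6 pairs, edgeR's quasi-likelihood test with Benjamini-Hochberg adjusted p = 0.00402).

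At chr1:195489184-195490422, 704 kb from the potassium channel gene KCNT2, the untreated values ran from 0.944 to 59.7 CPM (median 11.9) and the treated from 0 to 31.1 (median 4.83). KMS27 was highest in both conditions, and RPMI8226 was near background in both and did not move, with 0.944 and 0.942 CPM. The log2 fold change was -1.02 ± 0.24 (SE, 6 pairs, edgeR with Benjamini-Hochberg adjusted p = 0.00733). The region chr18:41151821-41152708, inside the dense group of 10 beside SYT4 and the last of the printed windows, also went down in 6 of 6 pairs, with a log2 fold change of -0.97 ± 0.24 (SE, adjusted p = 0.0103 by edgeR). In OPM2 it went from 17.2 to 4.07 CPM. At chr8:138351266-138351906 and chr1:195666176-195666843 the log2 fold changes were -0.997 and -0.71, each with 5 of 6 pairs down and L363 against the direction.

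**Figure D5:**
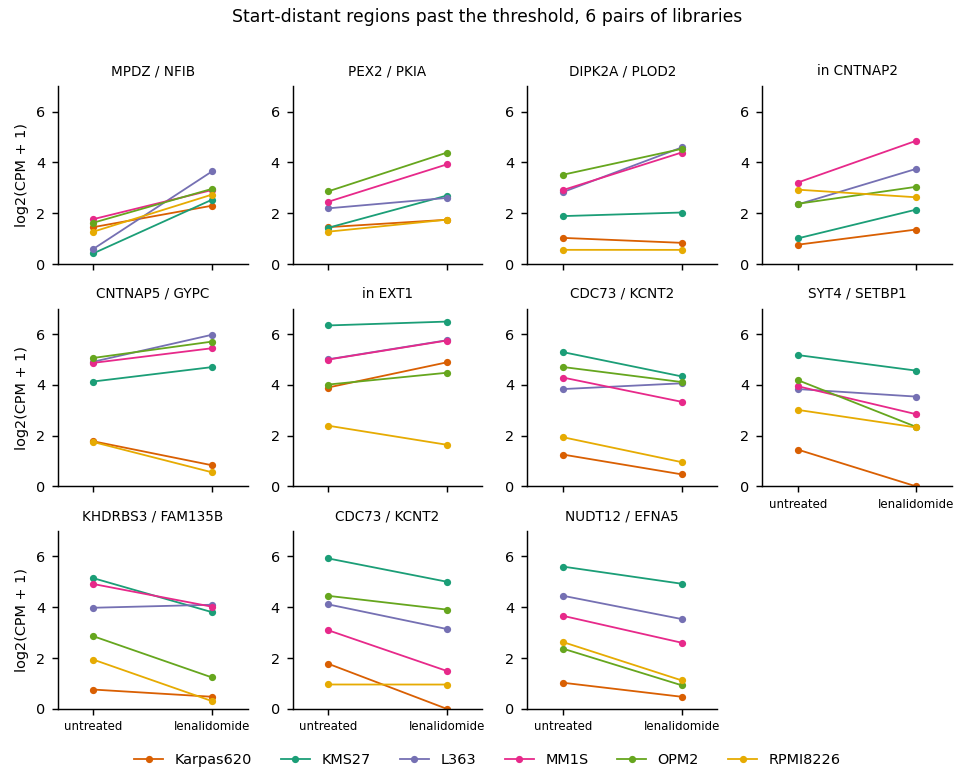
log2(CPM + 1) of 11 of the 12 start-distant regions past an edgeR adjusted p of 0.05, in the untreated (left) and lenalidomide (right) library of each of 6 lines, with the raised regions first and the 5 lowered after them, titled by the gene they lie in or the protein-coding genes on either side. The conditions do not overlap only in the first panel (0.337 to 2.40 against 3.91 to 11.5 CPM). The order of the lines changes there, with L363 going from 0.510 to 11.5 CPM, the highest after lenalidomide.

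These calls depended on the test. DESeq2 with the cell line in its design called 3 of 174 start-distant regions (0 raised and 3 lowered, on chromosomes 1, 5 and 18), gave no adjusted p for the region between MPDZ and NFIB, and called 839 of 34805 regions in all. With edgeR and 1 line left out at a time, 4 (without MM1S) to 23 (without RPMI8226, whose treated library was the deepest) were called. These were 2.70% and 10.2% of the start-distant regions tested, beside 3.22% and 6.74% of all regions tested, so the calls over the whole set moved in the same direction.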

How the data were processed

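ATAC-seq libraries of 22 untreated myeloma lines and 6 of them on day 3 of 10 µM lenalidomide were analysed. The authors deposited raw counts of reads per region, and a table of whole numbers that was read as the number of a library's own peaks in each region, where a value above 0 was taken as called, although the files do not define it. The submitters' processing notes name GRCh37, Bowtie2 2.2.6, SAMtools 1.7 and MACS2 2.1.0.20151222, and the methods give a q-value of 0.01 under a heading shared with ChIP-seq. Whether duplicates were removed, read ends shifted for the transposase, or reads or fragments counted is not given in the sources used here. The deposited scaled values and peak lists were not used.

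CPM was computed on the sum of counts over all regions. Regions were tested with edgeR 4.0.16 (R 4.3.3, limma 3.58.1): TMM, filterByExpr by condition, cell line as block, quasi-likelihood test, Benjamini-Hochberg adjusted p under 0.05. The pairs are libraries of the same line. Each standard error is the fold change divided by the root of its F value. In simulated counts for the same 37732 regions and this comparison, with 200 altered 2-fold, edgeR found 161 and made 8 false calls, DESeq2 1.42.0 found 126 and made 0, and neither called any (0) when nothing was altered. Sequence and 24-base words (both strands, words at 10 or more positions counted as repeated) came from GRCh37, and flanking protein-coding genes and gene kinds from GENCODE v44. Motifs were searched by exact letters. Of the regions named, 4 had their sequence printed, from windows without repeated words and outside chromosome 8, and 1 region named by the rule below is not reported here.

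The regions, gene lists, motifs and named regions were chosen with earlier results of these data known. Named were the 10 highest by median CPM (also beyond 5 Mb from the longest gap), the highest of those called in all 22 lines (0 exist), the 5 largest changes each way among regions moving alike in 6 pairs, the 5 highest called in 1 line, those farthest from a start, and the intervals and groups with most regions. Calls that moved differently between pairs were added after their values were seen. Alternatives are given in the closing section. With few counts per region, depth limits what can be seen, and 1 library per line gives no error within a line.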

Additional observations from a re-analysis of the deposited data

Results flagged for a closer look

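In 59 sets of 6 values that were examined (the lenalidomide libraries' shares and called regions, the CPM of named regions after lenalidomide, and the changes within pairs), 5 held a line far from the other 5 by Dixon's criterion, and chance gives about 1 in 20. At chr1:195666176-195666843 the change within a pair was 0.23 on the log2(CPM + 1) scale in L363 against -0.98 to -0.59 in the other lines. At chr5:105521212-105521852 KMS27 had 29.4 CPM after lenalidomide against 0.391 to 10.6, as it also was the highest without treatment. At chr1:195691350-195692276, the region called in untreated U266 alone, OPM2 had 6.33 CPM after lenalidomide against 0.461 to 2.39. At chr8:84607718-84608037 KMS27 had 7.53 CPM after lenalidomide against 0 to 1.81, and at chr13:104786859-104787061 L363 had 4.15 CPM after lenalidomide against 0 to 0.942. The last 3 values rest on few counts.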

How the results depend on the processing

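The 12 start-distant regions that passed the test (7 raised, 5 lowered) became 3 (0 and 3) with DESeq2, 1 (1 and 0) with at least 10 counts in each library, 38 (31 raised) with no filter on low counts, 54 (40 and 14) at a limit of 100 kb, 0 (0 and 0) of 7 tested at 500 kb, and 5 (3 and 2) with GENCODE v44 starts. With no replicate block edgeR called 0 (0 and 0), none in all 37732 regions, and 2 of the 197 had an unadjusted p under 0.05. Leaving out 1 line gave 4 to 23 calls, 1 to 18 raised and 3 to 6 lowered. For the 12 regions, the direction held under all 11 alternatives that gave a value, and 41 of 113 values were no longer past the threshold. The regions chr5:105521212-105521852 and chr1:195489184-195490422 kept the call in every setting with the block that tested them. So did the region between MPDZ and NFIB, which was tested in fewer settings and passed the main filter through its treated libraries alone. The other called region beside KCNT2, chr1:195666176-195666843, kept the call in 1 of 10 settings.

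The median number called per line, 199, was 1009 at 100 kb, 6.5 at 500 kb, 113.5 with GENCODE v44 starts and 548.5 with a CPM of at least 2. The median share of counts, 0.566%, was 2.59%, 0.0186% and 0.331% at 100 kb, at 500 kb and with GENCODE v44 starts. The 793 regions called in 1 line were 3654, 46 and 438 under the same 3 alternatives and 186 by CPM, and the 0 called in all lines were 5 at 100 kb, 13 by CPM and 1 without KMS20 and H1112. Over all comparisons 76 of 118 values stayed within the limits set for them. The excess spread of start-distant over 50 to 200 kb regions, 0.11 in median SD, was 0.09 to 0.15 throughout. Low counts limit all regions that are open in few lines. The GENCODE v44 starts, the removal of regions inside genes and the sets of libraries left out were chosen after seeing the data.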

Other observations

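Start-distant regions nearest to neuronal adhesion genes were open in some myeloma lines, each in its own pattern over the 22 untreated lines. The highest by median beside each gene are given here as values. Inside CNTNAP2, chr7:146353036-146353854 was called in 12 lines, with a median of 10.4 CPM and 51.9 in KMS11. Beside PCDH7, chr4:30462365-30463331 was called in 8, with a median of 6.75 CPM and a range of 0.547 in the lowest line to 27.1 in OPM2. In LRRTM4, a synaptic leucine-rich repeat protein gene, chr2:77472073-77473303 was called in 6 lines and ran from 0 to 51.6 CPM, highest in H1112. In the axon guidance receptor genes ROBO1 and ROBO2 the highest regions had medians of 1.03 and 2.43 CPM, with 6.66 in KMS20 and 20.5 in PCM6. No region beside these genes was called in more than 12 lines.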
